A study of Mus musculus with 4 samples.

Results

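Cytotoxic effector genes encode the molecules with which T cells and natural killer (NK) cells kill, and 10 of them were followed here out of the 32285 genes measured. They are the granzymes Gzma, Gzmb, Gzmk and Gzmm, the pore-forming protein gene Prf1, the granule genes Nkg7 and Ctsw, the chemokine gene Ccl5, the receptor gene Klrg1 and the death ligand gene Fasl. The list was named for its function, not from a measured value. The cells came from draining lymph nodes of wild-type C57BL/6 mice, 2 libraries from control mice and 2 from mice injected under the skin with a total of 100 µg of extracellular vesicles (EVs) released by induced pluripotent stem cells (iPSCs). The design text and the paper's methods place the harvest on day 5, whereas the sample labels record 24 h. The methods give the controls PBS, whereas the labels call them untreated. The 4 libraries are 2 biological replicates per group. How many animals stand behind a library is not given in the sources used here, and neither is the age of the mice.

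Killer cells store perforin and granzymes in secretory granules and release them toward a target. Perforin opens the target's membrane, and granzymes, a family of serine proteases, then cleave proteins inside it. Fas ligand kills by a separate route, through the Fas receptor. NK cells and memory CD8 T cells keep such transcripts ready before an encounter, while naive T cells hold few of them. Some regulatory T cells also use granzyme B.

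The members lie at separate places in the genome, except for Gzma and Gzmk, which are neighbours on chromosome 13. Coordinates are those of the GENCODE vM21 annotation on GRCm38, the assembly behind the mm10 build of the deposited counts. Gzma (ENSMUSG00000023132) spans chr13:113093825-113100981 and Gzmk (ENSMUSG00000042385) chr13:113171608-113225908, both on the reverse strand. Gzmb (ENSMUSG00000015437) spans chr14:56258838-56262260 on the reverse strand and Gzmm (ENSMUSG00000054206) chr10:79689020-79695261 on the forward strand. Prf1 (ENSMUSG00000037202) spans chr10:61297833-61304680 and Nkg7 (ENSMUSG00000004612) chr7:43437073-43438249, both on the forward strand. Ctsw (ENSMUSG00000024910) spans chr19:5465043-5468507, Ccl5 (ENSMUSG00000035042) chr11:83525778-83530518, Klrg1 (ENSMUSG00000030114) chr6:122270596-122282882 and Fasl (ENSMUSG00000000817) chr1:161780689-161788495, all on the reverse strand. Ctsw overlaps Fibp and Gzmk overlaps Esm1, each on the opposite strand. Whether the counting used strand is not given in the sources used here, so the counts of these 2 genes carry that uncertainty.

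RefSeq promoters (GRCm38.p6) were matched for 7 of the 10 genes, at 8 start sites. Ctsw, Ccl5 and Klrg1 had no entry in the table. The letters TGTGGT or their reverse complement ACCACA, the core bound by RUNX factors, stood in the 250 bases before the start in 5 of the 8 windows, against 14.0% of 32851 mouse promoters. The T-box core GGTGTGA or TCACACC stood in 3 of the 8 windows, at Nkg7, Gzmk and the second start of Gzmm, against 3.33% of all promoters. Both strands were searched, and the 2 sets of letters can share GGT. A match describes the letters and not a bound site. The Fasl window held neither set of letters and is not shown. The windows shown are those of 4 genes that hold the RUNX core and separate the cell classes in different ways. They run 5′ to 3′ on the gene's own strand and end before the annotated gene, with the RUNX core in capitals. The core begins 50 bases before the start of Gzma, 93 and 34 bases before that of Gzmb, 130 before that of Prf1 and 247 before the first start of Gzmm.
Gzma, chr13:113100982-113101231, reverse strand: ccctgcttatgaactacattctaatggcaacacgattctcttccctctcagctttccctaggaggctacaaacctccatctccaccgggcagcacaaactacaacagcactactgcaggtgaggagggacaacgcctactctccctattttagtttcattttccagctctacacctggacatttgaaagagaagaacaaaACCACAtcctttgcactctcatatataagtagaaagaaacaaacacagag
Gzmb, chr14:56262335-56262584, reverse strand: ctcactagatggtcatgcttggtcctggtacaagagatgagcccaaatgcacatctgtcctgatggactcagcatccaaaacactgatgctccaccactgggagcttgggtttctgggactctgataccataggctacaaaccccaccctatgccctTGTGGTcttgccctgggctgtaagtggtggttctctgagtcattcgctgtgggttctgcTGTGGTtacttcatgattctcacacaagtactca
Prf1, chr10:61297586-61297832, forward strand: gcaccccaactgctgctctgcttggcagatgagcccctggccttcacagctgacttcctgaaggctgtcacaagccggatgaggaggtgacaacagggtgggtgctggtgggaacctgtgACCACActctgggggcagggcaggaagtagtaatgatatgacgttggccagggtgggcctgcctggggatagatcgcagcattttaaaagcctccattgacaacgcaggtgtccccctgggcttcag
Gzmm, chr10:79688770-79689019, forward strand: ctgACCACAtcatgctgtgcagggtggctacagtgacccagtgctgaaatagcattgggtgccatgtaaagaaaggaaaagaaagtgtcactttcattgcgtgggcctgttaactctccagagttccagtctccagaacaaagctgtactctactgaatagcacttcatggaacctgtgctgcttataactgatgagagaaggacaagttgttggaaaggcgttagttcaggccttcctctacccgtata

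Levels were read in 5 gates drawn on a few transcripts of each cell, where a UMI (unique molecular identifier) stands for 1 captured mRNA molecule. CD8 T cells held Cd3e and Cd8a but neither Cd4 nor Cd79a, and were split by Il2rb, the receptor chain high on memory cells, into 2121 cells with at least 1 UMI (Il2rb+) and 3780 with none (Il2rb0). CD4 T cells (5197) held Cd3e and Cd4 without Cd8a or Cd79a. NK cells (130) held at least 2 UMIs of Ncr1 and Klrb1c together and no Cd3e, and B cells (14674), which should lack the members, held Cd79a and no Cd3e. The NK gate was small, with 24, 48, 20 and 38 cells in Control 1, Control 2, EV 1 and EV 2. These were cells out of 32725 kept and 34323 deposited, from libraries of 50749656 to 70418672 UMIs. All 7 NK markers were seen in at least 10% of the NK gate in every library, among them Klra8 in 41.7% to 55.0% of cells against at most 0.632% in the other gates. Some NK markers were shared with other gates. Txk, in 90.0% to 95.8% of NK-gate cells, was also in 67.2% to 88.2% of T cells. Eomes was in 19.0% to 38.0% of Il2rb+ CD8 T cells and Tyrobp in 11.2% to 16.2% of B cells. All 5 CD8 T, CD4 T and B markers were likewise seen in their own gates, but not only there. Cd3d, Cd3g, Trac and Trbc2 are in both T cell lists, and the B marker Ighm was seen in 45.8% to 79.6% of cells of the T cell and NK gates. In NK-gate cells the T cell marker Cd3d appeared in 5.00% to 12.5%, Cd3g in 10.0% to 13.2%, Trac in 4.17% to 10.0% and Trbc2 in 39.5% to 54.2%. The gamma-delta T marker Trdc appeared in 25.0% to 42.1% of them. In Il2rb+ CD8 T cells the memory marker Cd44 appeared in 26.2% to 32.3% and Ly6c2 in 53.4% to 70.5%. The naive T markers were seen there too, with Lef1 in 97.3% to 99.3% and Ccr7 in 68.3% to 78.9%. Cells of the EV libraries were deeper in every T cell and B gate. The median was 8619 and 9624 UMIs in control against 11462.5 and 10321 in EV Il2rb+ CD8 T cells, so shares of cells are also given after each cell was thinned to 2000 UMIs. The libraries shared 12 to 26 barcodes pairwise. Gm42418, a ribosomal RNA-like transcript, was lower in both EV libraries than in both control libraries in all 5 gates, and lowest in EV 2. In Il2rb+ CD8 T cells it stood at 8032 and 9429 CPM (UMIs per 1000000 UMIs of the gate) in control, 5301 CPM in EV 1 and 742 CPM in EV 2. Its part in the members' values was not tested.

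**Figure D1:**
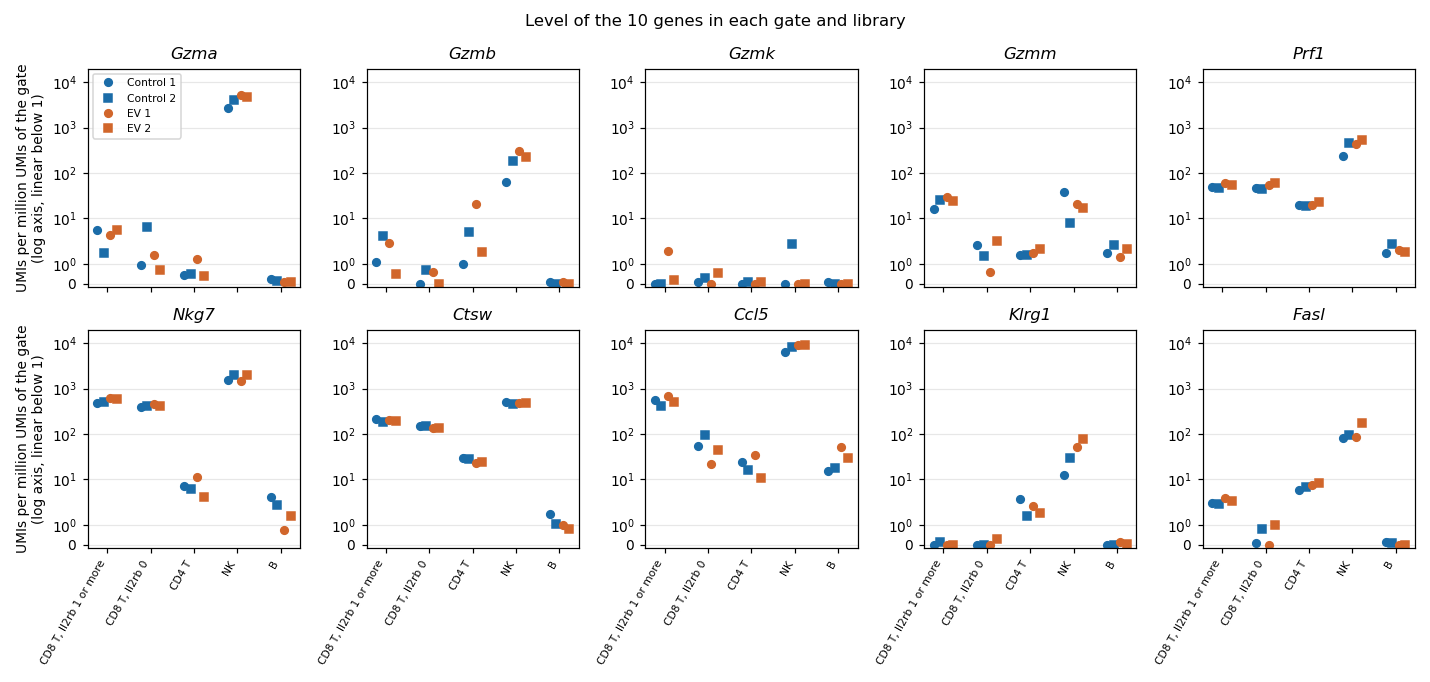
Level of each gene in UMIs per 1000000 UMIs of the gate (log axis, linear below 1) in the 5 gates, with 1 point per library (blue for control, orange for EV, circles for replicate 1 and squares for replicate 2). Gzma lies between 2667 and 5151 in NK cells and at most 6.58 in the other gates, whereas Nkg7 and Ctsw are high in both CD8 gates as well.

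Gzma, a tryptase-like granzyme, was almost wholly an NK transcript. Its level was 2667, 3991, 5151 and 4620 CPM in the NK cells of Control 1, Control 2, EV 1 and EV 2, against 1.71 to 5.66 CPM in Il2rb+ CD8 T cells. The NK gate held 92.9% of all Gzma UMIs of the kept cells in 130 cells. The fitted log2 difference between NK and Il2rb+ CD8 T cells was 9.64 (SE 0.17), and the adjusted p was 8.2e-22 in edgeR's quasi-likelihood test. Of NK cells, 75.4% held a Gzma UMI, against 1.65% of Il2rb+ CD8 T, 0.741% of Il2rb0 CD8 T, 0.385% of CD4 T and 0.0750% of B cells. The few positive CD8 T cells could be strongly so. A single Il2rb0 cell of Control 2 held 60 of that library's 68 Gzma UMIs in the gate, and a single Il2rb+ cell of Control 1 held 23 of 26.

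Gzmb, the aspartate-cutting granzyme, was less confined to NK cells. NK cells held 63.8, 180, 303 and 227 CPM in library order, with a UMI in 39.2% of cells. CD8 T cells held next to none, with at most 4.05 CPM in the Il2rb+ and at most 0.678 CPM in the Il2rb0 gate. The Il2rb0 gate had no Gzmb UMI in Control 1 and EV 2, where 0 of 1174 and 0 of 815 cells allow a share of cells with a UMI of up to 0.256% and 0.368% (3 counts of the total), which sets no limit on cells that express the gene. CD4 T cells held 1.01, 4.90, 20.5 and 1.79 CPM. Of all Gzmb UMIs 35.5% lay in the CD4 T gate and 29.0% in the NK gate, an order set by EV 1. The CD4 T gate held 9, 58, 164 and 18 UMIs in library order against 10, 67, 60 and 66 in the NK gate, so NK cells held more in 3 of 4 libraries. B cells held 4 Gzmb UMIs in 14674 cells.

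Gzmm, a granzyme with a preference for methionine, followed another order. Il2rb+ CD8 T cells held 16.3, 25.8, 30.2 and 24.4 CPM, with a UMI in 10.3% of cells, and 53.1% of all Gzmm UMIs lay in that gate. Il2rb0 CD8 T cells held 2.59, 1.45, 0.576 and 3.09 CPM, and the log2 difference between the 2 CD8 gates was 3.60 (SE 0.26, adjusted p = 1.2e-09). NK cells, with 18 Gzmm UMIs, stood at 8.05 to 38.3 CPM and were not separated from the Il2rb+ gate (log2 difference -0.77, SE 0.45, adjusted p = 0.24). Levels in Il2rb0 CD8 T and CD4 T cells, the latter at 1.52 to 2.09 CPM, lay within or near the 1.38 to 2.55 CPM of B cells and were read as background. Gzmk, a granzyme of memory T cells, was close to absent, with 28 UMIs in all kept cells, of which 11 lay in Il2rb+ CD8 T cells and 1 in NK cells. It did not pass the filter on low counts in any EV comparison.

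Prf1, the pore former, was detected in every killer class at graded levels. NK cells held 236, 451, 430 and 534 CPM. Il2rb+ CD8 T cells held 49.0, 46.1, 60.1 and 54.0 CPM, Il2rb0 cells 45.5, 43.5, 55.7 and 59.2 CPM, CD4 T cells 19.2, 18.8, 19.5 and 23.0 CPM and B cells 1.68 to 2.70 CPM. The Il2rb split did not separate this gene (log2 difference 0.05, SE 0.10, adjusted p = 0.90), while NK cells stood 2.74 log2 units above Il2rb+ CD8 T cells (SE 0.13, adjusted p = 5.3e-14). CD4 T cells were above B cells by 3.39 log2 units (SE 0.15, adjusted p = 6.3e-16), with a UMI in 12.3% of cells against 1.04%. After thinning the shares were 3.66% and 0.398%.

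Nkg7 is a granule membrane protein needed for exocytosis, and Ctsw is the cathepsin of killer cells. Both separated CD8 T from CD4 T cells more than they separated the CD8 gates. Nkg7 was seen in 94.7% of Il2rb+ and 89.1% of Il2rb0 CD8 T cells but in 1.81% of CD4 T and 0.620% of B cells. Its level was 480 to 628 CPM in the Il2rb+ gate, 396 to 465 CPM in the Il2rb0 gate and 1501 to 1998 CPM in NK cells. Il2rb0 CD8 T cells exceeded CD4 T cells by 5.98 log2 units (SE 0.20, adjusted p = 5.6e-17), and the difference between the CD8 gates was 0.40 (SE 0.13, adjusted p = 0.11). Ctsw was seen in 76.0% of Il2rb+ CD8 T, 61.8% of Il2rb0 CD8 T, 14.6% of CD4 T, 93.8% of NK and 0.538% of B cells. It was higher in Il2rb+ than in Il2rb0 cells by 0.47 log2 units (SE 0.05, adjusted p = 2.6e-07), with 188 to 210 CPM against 138 to 150 CPM and no overlap between the gates. Its level in CD4 T cells, 23.2 to 30.3 CPM, exceeded that in B cells by 4.64 log2 units (SE 0.12, adjusted p = 1.2e-20).

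Ccl5, a chemokine stored beside the granules that draws in T cells and monocytes, separated the CD8 gates by the share of cells as well as by level. It was seen in 29.2% of Il2rb+ and 6.19% of Il2rb0 CD8 T cells, 20.1% and 2.81% after thinning. The level was 575, 423, 691 and 496 CPM in the Il2rb+ gate and 6514, 8228, 9159 and 9291 CPM in NK cells, of which 93.8% held it. The log2 difference between the CD8 gates was 3.23 (SE 0.31, adjusted p = 1.4e-07). Much of this transcript lay outside the 5 gates, with 24.5% of its UMIs in 2086 cells that lacked Cd3e and met neither the NK nor the B gate, and 18.7% in 2887 Cd3e cells without Cd4, Cd8a or Cd79a.

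Klrg1, an inhibitory receptor of terminal effector cells, was near 0 in CD8 T cells. The Il2rb+ gate held 1 UMI in 2121 cells and the Il2rb0 gate 2 UMIs in 1 of 3780 cells. NK cells held 2, 11, 10 and 22 UMIs (12.8, 29.5, 50.5 and 75.8 CPM), and CD4 T cells 33, 19, 21 and 18 UMIs (1.60 to 3.71 CPM). Fasl was highest in NK cells, at 82.9, 93.9, 85.9 and 176 CPM, with a UMI in 50.8% of cells. CD4 T cells held 5.74, 6.76, 7.61 and 8.45 CPM and Il2rb+ CD8 T cells 2.80 to 3.85 CPM, while Il2rb0 CD8 T cells lay at 0 to 0.985 CPM. The Il2rb+ gate exceeded the Il2rb0 gate by 2.64 log2 units (SE 0.44, adjusted p = 3.6e-04), and CD4 T cells exceeded Il2rb0 CD8 T cells, whose difference from them was -3.70 (SE 0.37, adjusted p = 2.5e-08).

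Counted over the classes, 9 of the 10 genes passed the low-count filter in the joint fit, all but Gzmk. Between NK and Il2rb+ CD8 T cells 8 of the 9 were called, each higher in NK cells, against 11.0% of 12647 genes called higher. For Klrg1 the fit compares 45 UMIs with 1. The median log2 difference was 3.63 over the 9 genes and -0.12 over all genes. Between the CD8 gates 4 were called higher with Il2rb (Gzmm, Ccl5, Ctsw and Fasl), against 3.80% of all genes. Between Il2rb0 CD8 T and B cells 6 were called higher, against 34.1% of all genes, and between CD4 T and B cells another set of 6 against 34.5%. Gzmb, Klrg1 and Fasl were lower in Il2rb0 CD8 T than in CD4 T cells, and Ctsw, Nkg7, Prf1, Ccl5 and Gzma higher, 8 of 9 called against 29.9% of all genes called in either direction. The Gzma call between Il2rb0 CD8 T and CD4 T cells (2.27, SE 0.64, adjusted p = 0.0087) was lost without Control 2, which held the single high cell (0.70, adjusted p = 0.43), and after thinning (adjusted p = 0.11). Without Control 2 the calls of Ccl5 in Il2rb0 CD8 T cells were also lost, against B cells (0.52, adjusted p = 0.18) and against CD4 T cells (1.00, adjusted p = 0.063), and Gzma was called between the CD8 gates (2.27, adjusted p = 0.0012). Without EV 1 Gzmb (2.82) and Nkg7 (0.37) were called between the CD8 gates, and without EV 2 Gzmb (2.58). Against B cells Gzma was called in CD4 T cells without Control 2 (2.42, adjusted p = 0.0036) and Gzmb in Il2rb0 CD8 T cells without EV 2 (2.97, adjusted p = 0.030). The gates are defined by Cd8a, Cd4, Cd79a, Cd3e, Il2rb, Ncr1 and Klrb1c, none of which is a member.

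**Figure D2:**
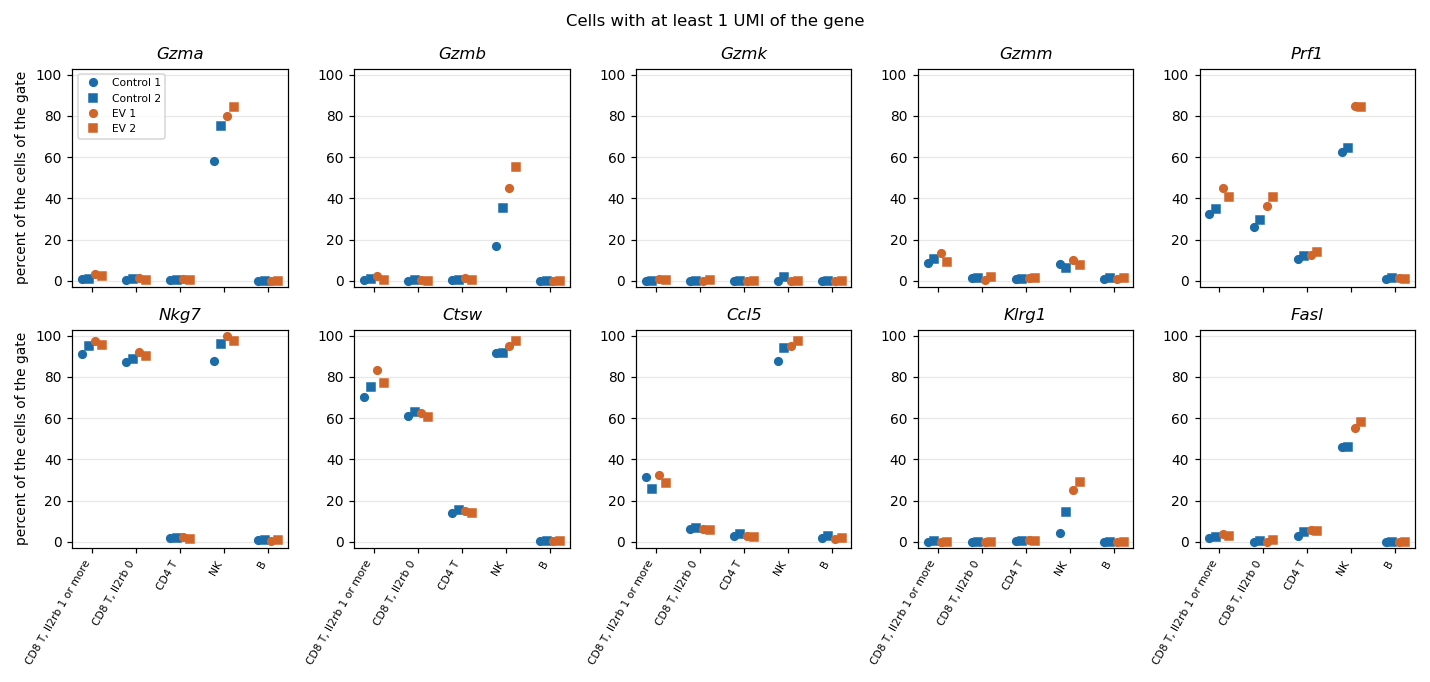
Percent of the cells of each gate that hold at least 1 UMI of the gene, with 1 point per library (colours and shapes as in the plot of levels). Nkg7 is seen in 87.4% to 97.3% of CD8 T cells of either gate, and Gzmb is seen mainly in NK cells, in 16.7% to 55.3% of them.

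Within CD4 T cells the members fell into separate sets by Foxp3, the master factor of regulatory T cells. A Foxp3 UMI was present in 307 of the 5197 cells. Gzmb was seen in 7.17% of the Foxp3 cells and in 0.164% of the others, and 205 of its 249 UMIs (82.3%) lay in Foxp3 cells. By library the Gzmb UMIs in Foxp3 cells were 5 of 9, 51 of 58, 132 of 164 and 17 of 18. Klrg1 was seen in 8.14% and 0.143% of cells, with 80.2% of its UMIs in Foxp3 cells. Both genes were higher in the Foxp3 cells in 4 of 4 libraries. Nkg7 (6.51% against 1.51%) and Ccl5 (9.45% against 2.56%) were also higher in 4 of 4 libraries. Fasl went the other way, with 1.63% of Foxp3 cells and 4.64% of the others, lower in 4 of 4, and Prf1 was seen in 5.86% and 12.7%, lower in 3 of 4. Depth did not run in 1 direction, with medians of 6921, 7192, 8267.5 and 7290 UMIs in Foxp3 cells against 6007, 6978, 8363 and 7559.5 in the others. With 4 libraries an exact paired permutation test cannot give a two-sided p below 0.125, which it gave for Gzmb, Klrg1, Nkg7, Ccl5 and Fasl.

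**Figure D3:**
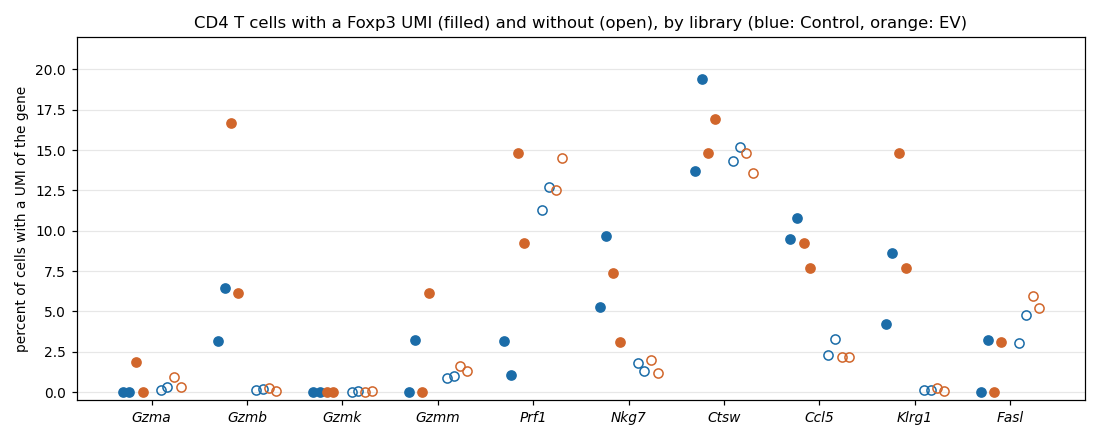
Percent of CD4 T cells with a UMI of each gene among cells with a Foxp3 UMI (filled) and without (open), with 1 point per library (blue for control, orange for EV). Gzmb and Klrg1 are higher among Foxp3 cells in all 4 libraries, and Fasl is lower.

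Among Il2rb+ CD8 T cells 5 members, Gzmm, Fasl, Nkg7, Ctsw and Prf1, were seen more often in cells with Ccl5. Cells with a Ccl5 UMI (159, 163, 142 and 155 per library) held Gzmm in 19.5%, 31.9%, 31.7% and 23.2% of cells, against 3.44%, 3.19%, 4.70% and 3.64% of cells without. After thinning Gzmm was seen in 5.56% to 14.3% and 1.00% to 2.09%. Fasl was seen in 3.77% to 9.15% of the Ccl5 cells and 0.260% to 1.15% of the others. Nkg7 and Ctsw were also higher with Ccl5 after thinning, by 16.0 and 9.50 percentage points on average. Prf1 differed by 12.7 points as counted and 1.65 points after thinning. Each of these was higher in 4 of 4 libraries, with exact paired permutation p = 0.125, the smallest possible. Of the other members after thinning, Gzma was higher in 3 of 4 libraries (0.304 points), Gzmb in 2, Gzmk in 1 and Klrg1 in 0. The Ccl5 cells carried more of the memory markers, among them Cxcr3 in 55.2% to 72.5% against 10.4% to 21.8% and Ly6c2 in 88.3% to 95.8% against 41.3% to 58.4%. They were also deeper, with 10023 to 13237.5 median UMIs against 7895 to 10677.5.

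Single NK cells held several of the members at once. They carried 5.48 of the 10 genes on average, and 73.1% held at least 5, against 5.99% of Il2rb+ CD8 T, 0.212% of Il2rb0 CD8 T and 0.0385% of CD4 T cells. Of the 98 NK cells with Gzma, 88.8% also held Prf1, and of the 51 with Gzmb, 96.1% held Gzma. All 24 NK cells with a Klrg1 UMI held Gzma. The mean number per cell was 2.54 in Il2rb+ CD8 T, 1.92 in Il2rb0 CD8 T, 0.390 in CD4 T and 0.0528 in B cells. After thinning it was 1.26, 0.900, 0.126 and 0.0222, with 4.20 in NK cells. At least 5 were then held by 48.0% of NK and 0.189% of Il2rb+ CD8 T cells.

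The design asks whether iPSC EVs changed these genes, and of the members tested in T and NK cells 1 was called. In Il2rb+ CD8 T cells 8 of the 10 genes passed the filter and 0 were called, against 0.513% of 10913 genes, also 0 with DESeq2. At an unadjusted p under 0.05 stood Nkg7 (0.30, SE 0.11, adjusted p = 0.26) and Prf1 (0.28, SE 0.12, adjusted p = 0.32), and 1440 of all genes did so. For Nkg7, Prf1 and Fasl, 3 of the 8, the level was higher in each EV library than in either control library, against 22.4% of all genes in this gate. The other log2 differences were 0.53 for Gzma (SE 0.47), -0.70 for Gzmb (SE 0.71), 0.35 for Gzmm (SE 0.20), 0.01 for Ctsw (SE 0.10), 0.28 for Ccl5 (SE 0.17) and 0.33 for Fasl (SE 0.37). The interval of 1.96 SE for Ctsw ran from -0.19 to 0.20 and that for Gzmb from -2.10 to 0.69. The median over the 8 genes was 0.29 and over all genes -0.00. Without EV 2, Nkg7 (0.38, adjusted p = 0.013) and Ccl5 (0.53, adjusted p = 0.0031) were called, and without EV 1 Ccl5 stood at -0.01.

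In Il2rb0 CD8 T cells 6 genes passed and 1 was called, Ccl5, which fell, against 1.37% of 11350 genes. Prf1 stood at 0.37 (SE 0.09, adjusted p = 0.072), with control libraries at 45.5 and 43.5 CPM and EV libraries at 55.7 and 59.2 CPM. The Prf1 share was 25.9% and 29.4% in control and 36.4% and 40.7% in EV cells, and 8.70% and 8.15% against 11.9% and 12.6% after thinning. Prf1 passed the threshold without EV 1 (0.40, adjusted p = 0.013) and without the low-count filter (0.37, adjusted p = 0.027), and its adjusted p over all alternatives ran from 0.013 to 0.36. Nkg7 stood at 0.15 (SE 0.09), Ctsw at -0.10 (SE 0.08), Gzmm at 0.00 (SE 0.40) and Gzma at -1.87 (SE 0.75, adjusted p = 0.25). The Gzma value turned on the cell of Control 2 named above, with 0.19 without Control 2 and -2.61 without Control 1, where it was called (adjusted p = 2.9e-05).

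In CD4 T cells 8 genes passed and 0 were called by edgeR and by DESeq2, against 1.09% of 11933 genes, 1993 of which had an unadjusted p under 0.05. Gzmb differed by 1.80 log2 units (SE 0.84, adjusted p = 0.31). EV 1 alone was high, and 6 of its cells held 151 of its 164 Gzmb UMIs. The value was -0.79 without EV 1, 3.44 without Control 2 and 2.72 without EV 2, each with 1 library left in a group. The 3 regulatory T cell markers summed to 274 to 313 CPM in control and 223 to 236 CPM in EV CD4 T cells, and their part in the Gzmb and Klrg1 values was not tested. Ctsw stood at -0.30 (SE 0.11, adjusted p = 0.20), with 30.3 and 28.4 CPM in control against 23.2 and 23.9 CPM in EV cells, Prf1 at 0.18 (SE 0.13) and Fasl at 0.37 (SE 0.21). Nkg7 stood at 0.17 (SE 0.37), and without EV 2 it was called (0.77, adjusted p = 0.025).

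In NK cells 8 genes passed and 0 were called, as was true of all 4491 genes tested (percent called 0), with 258 at an unadjusted p under 0.05 and 0 called by DESeq2 as well. Klrg1 stood at 1.38 (SE 0.52), Gzmb at 0.92 (SE 0.35) and Gzma at 0.52 (SE 0.24), each with an adjusted p of 0.86. Gzmb was called without Control 2 (1.97, adjusted p = 0.0071) and Gzma without EV 2 (0.62, adjusted p = 0.0017). Without Control 1, Gzmb stood at 0.52, Gzma at 0.26 and Prf1 at 0.07. Fasl stood at 0.55 (SE 0.35), Prf1 at 0.40 (SE 0.27), Ccl5 at 0.29 (SE 0.23), Nkg7 at -0.07 (SE 0.22) and Ctsw at -0.01 (SE 0.22). The share of NK cells with a UMI was higher in both EV libraries than in both control libraries for all 8 of these genes and lower for 0, against 30.8% and 6.72% of all genes in this gate. For Gzmb it was 16.7% and 35.4% in control against 45.0% and 55.3% in EV cells, and for Klrg1 4.17% and 14.6% against 25.0% and 28.9%. Klrg1 passed the low-count filter only through its EV libraries, so its fitted value and its place among the 8 partly reflect that filter. For Gzmm and Gzmk, which did not pass, the shares overlapped. After thinning 6 of the 8 did not overlap, against 18.4% of all genes, while Nkg7 and Ctsw did. Klrg1, among the 6, was then held by 7 cells in all, at 4.26% to 8.11%. The Clopper-Pearson intervals of single libraries were wide, 37.4% at the upper end for Gzmb in Control 1. An exact permutation test of 2 against 2 libraries cannot give a two-sided p below 0.33, which is the value for each of these shares. Control 1 had the lowest level of Gzma, Gzmb, Klrg1, Prf1 and Ccl5 among the 4 libraries. B cell markers in the NK gate summed to 115 to 274 CPM in control and 369 to 551 CPM in EV cells. CD8 T cell markers in it summed to 300 to 389 CPM and 172 to 238 CPM, and myeloid markers to 239 to 255 CPM and 200 to 222 CPM. The part of these markers in the members' values was not tested.

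**Figure D4:**
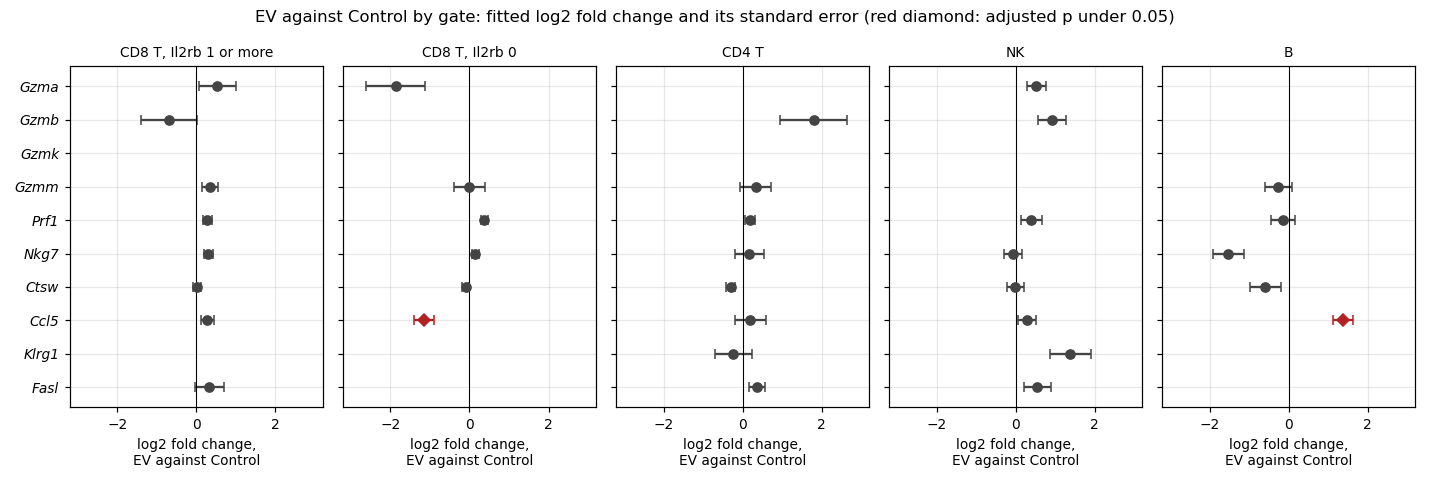
Fitted log2 fold change of EV against Control (points) with its standard error (bars) for each gene and gate, where a red diamond marks an adjusted p under 0.05 and genes without a point did not pass the low-count filter. The called values are Ccl5 in Il2rb0 CD8 T cells (-1.15) and in B cells (1.37).

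The change in shares over T cells was mixed. As counted, 5 of 8 tested genes in Il2rb+ CD8 T cells had a higher share in both EV libraries (Fasl, Nkg7, Prf1, Gzma and Ctsw), and 0 a lower one, against 48.3% and 7.75% of all genes, where EV cells were deeper. After thinning 4 did (Fasl, Nkg7, Prf1 and Gzmb), against 17.9%, and Ctsw was lower, against 19.2%. Of these Gzmb was held by 0 and 1 control and 3 and 1 EV cells, and Fasl by 12 cells in all, so both stood near the floor. As counted, Nkg7 and Prf1 were higher and 0 of 6 lower in Il2rb0 CD8 T cells, against 44.4% and 7.81% of all genes. Fasl, Prf1 and Gzmm were higher and Ccl5 lower in CD4 T cells, against 54.3% and 7.79%. In B cells 0 of 5 were higher and 0 lower, against 59.5% and 7.97%, and after thinning Nkg7 and Ctsw were lower, against 27.9%. In Il2rb0 CD8 T cells Nkg7 and Prf1 were higher and Ccl5 and Ctsw lower after thinning, against 19.9% of all genes in either direction. In CD4 T cells Prf1 and Gzmm were higher (19.9%) and Ctsw lower (22.2%). Gzmm was then held by 1 and 3 control and 2 and 4 EV cells, and its level in this gate was read as background above.

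Ccl5 was the only member called in both directions, down in Il2rb0 CD8 T cells and up in B cells. In Il2rb0 CD8 T cells the control libraries held 54.7 and 94.4 CPM and the EV libraries 22.1 and 44.0 CPM, which gave a log2 difference of -1.15 (SE 0.25, adjusted p = 0.046). It was -0.69 without Control 2, -0.79 without EV 1, -1.49 without Control 1 and -1.74 without EV 2, each called. In the same gate the memory CD8 T markers summed to 242 to 271 CPM in control and 280 to 281 CPM in EV cells. The naive T markers summed to 1606 to 1609 and 1673 to 1735 CPM, and the 2 plasmacytoid dendritic cell markers to 71.1 to 82.7 and 113 to 125 CPM. Of the plasmacytoid markers Bst2 was seen in 38.2% to 55.0% of cells and Siglech in 0% to 0.326%. The part of these markers in the Ccl5 value was not tested. Nor was that of the Il2rb split, which moves with depth. The share of cells with Ccl5 did not follow, at 5.96% and 6.60% against 6.39% and 5.77%. The UMIs were carried by few cells. In library order 13, 10, 3 and 4 of 1174, 1228, 563 and 815 cells had at least 10 UMIs, and these held 1449 of the gate's 1868. A single cell of Control 2 held 544 of 975 UMIs. With the highest Ccl5 cell of every library left out, an alternative added after seeing the data, the difference was -1.03 (adjusted p = 0.0019). It lost its call with DESeq2 (adjusted p = 0.40), with median-ratio scaling (0.054) and in cells thinned to 2000 UMIs (-0.51, adjusted p = 0.26).

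In B cells Ccl5 stood at 15.0 and 17.5 CPM with controls and at 52.0 and 29.1 CPM with EVs, a log2 difference of 1.37 (SE 0.25, adjusted p = 0.026), and 1 of 5 members tested was called against 2.76% of 13248 genes. Without EV 1 the value was 0.88, still called. Here too the share was flat, 1.62% and 2.80% against 1.58% and 2.02%, and 29 of 14674 cells carried 2445 of 2828 UMIs. The myeloid marker Cst3 was seen in 96.6% of those 29 cells and 60.5% of the other B-gate cells. Lyz2 was seen in 27.6% and 3.28%, and Itgax in 0% and 0.0956%. Nkg7 stood at -1.53 (SE 0.39, adjusted p = 0.079) and was called without EV 1 (-1.07) or EV 2 (-2.15). The 5 CD8 T cell markers, which summed to 54.4 to 75.1 CPM in control and 25.2 to 28.8 CPM in EV B-gate cells, were also lower with EVs, and their part in the Nkg7 value was not tested. With stricter gates (at least 2 Cd79a UMIs) the Ccl5 difference was 0.25 (adjusted p = 0.58), and in thinned cells 0.73 (adjusted p = 0.067). The 5 myeloid markers summed to 233 to 253 CPM in control and 255 to 291 CPM in EV B-gate cells. Of these markers Cst3 was seen in 53.2% to 65.3% of B-gate cells and the others in at most 4.20%. The part of these markers in the Ccl5 value was not tested.

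**Figure D5:**
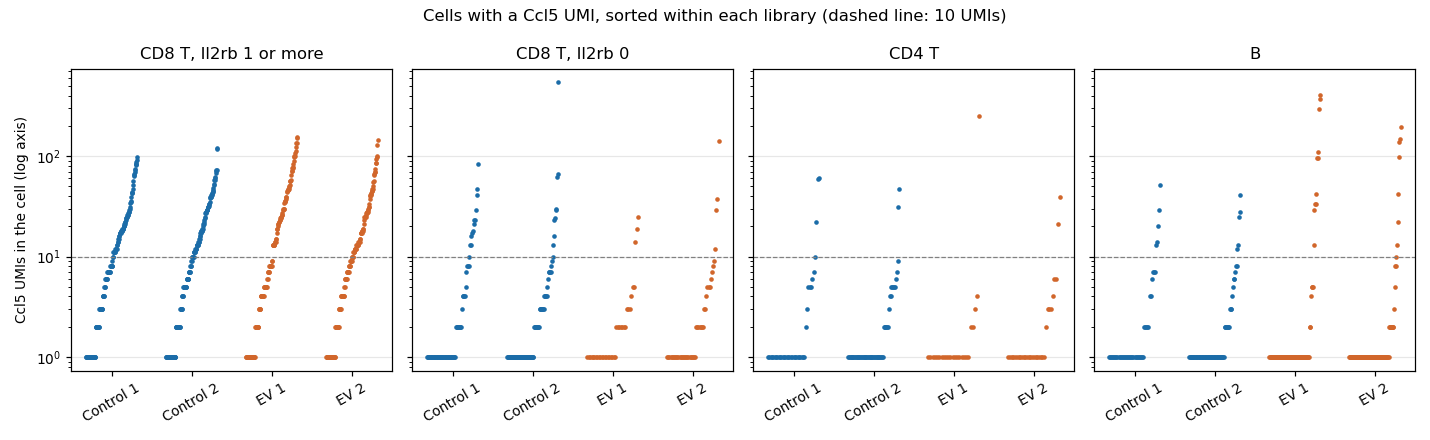
Ccl5 UMIs of every cell with at least 1 such UMI (log axis), sorted within each library, in both CD8 T gates and the CD4 T and B gates. The dashed line marks 10 UMIs. Of the 440 to 633 Il2rb+ CD8 T cells per library 69 to 81 lie on or above the line, and of the 563 to 1228 Il2rb0 cells 3 to 13. Single cells reach 544 in Il2rb0 CD8 T and 251 in CD4 T cells.

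The difference between the EV effects in the 2 CD8 gates was tested as an interaction, where 1 of 8 members, Ccl5, was called against 0.0438% of 11415 genes. Its effect was 1.39 log2 units higher in the Il2rb+ than in the Il2rb0 gate (SE 0.25, adjusted p = 0.012). The Il2rb split moves with depth, which was higher in EV cells, and its part in this value was not tested. The Ccl5 call was lost with DESeq2, in thinned cells and without Control 2, where the adjusted p was 0.073 and the value 0.69. Gzma (2.36, SE 0.81, adjusted p = 0.53) was called without Control 1 (4.15) or EV 1 (3.11). In CD4 T cells the Ccl5 value was 0.20 (SE 0.40), with 1 cell holding 251 of 281 UMIs in EV 1. Leaving out the highest cell of each library turned it to -1.38 (adjusted p = 0.028). Without EV 1 it was -0.85 and without EV 2 0.88, both called.

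A larger share of CD8 T cells fell on the Il2rb+ side of the split in the EV libraries, 43.9% and 39.9% against 30.2% and 34.0%. The mean difference was 9.75 percentage points with exact permutation p = 0.33. After thinning it was 3.93 points, with 15.7% and 14.3% against 11.0% and 11.1%. Il2rb+ cells numbered 440 and 540 in EV against 508 and 633 in control libraries, and Il2rb0 cells 563 and 815 against 1174 and 1228. All CD8 T cells were 12.3% and 15.9% of kept cells in EV against 20.7% and 23.6% in control libraries. Since the split uses a count of at least 1 UMI, it moves with depth. A single Il2rb UMI placed 62.2% and 62.6% of the control and 45.9% and 52.4% of the EV Il2rb+ cells there. The 5 memory CD8 T markers summed to 666 to 735 CPM in control and 811 to 895 CPM in EV Il2rb+ cells, the 7 NK markers to 325 to 347 and 357 to 417 CPM, the 5 myeloid markers to 55.9 to 65.1 and 78.7 to 87.0 CPM and the 2 plasmacytoid dendritic cell markers to 68.6 to 85.6 and 115 to 125 CPM. The plasmacytoid sum was higher in both EV libraries in all 5 gates. Of its markers Bst2 was seen in 44.3% to 62.5% of Il2rb+ cells and Siglech in 0% to 0.370%. Of the myeloid markers Cst3 was seen in 36.4% to 52.6% of Il2rb+ cells and the others in at most 3.64%. The part of these markers in the values of the members in that gate was not tested.

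Of 51 other cytotoxicity genes, those called with EVs in T or NK cells were Eomes, Klre1 and Xcl1. In Il2rb+ CD8 T cells Eomes, a T-box factor of memory CD8 T and NK cells, rose by 0.88 log2 units (SE 0.16, adjusted p = 0.041), from 52.0 and 33.6 CPM to 75.6 and 77.1 CPM, and without Control 2 by 0.58 (adjusted p = 0.10). It rose by 1.11 in Il2rb0 CD8 T cells (SE 0.14, adjusted p = 0.0026) and by 2.70 in CD4 T cells (SE 0.45, adjusted p = 0.020), where it was seen in 4, 7, 15 and 25 cells. In CD4 T cells Eomes passed the low-count filter only through the EV libraries, at 3.12 and 5.57 CPM against 0.563 and 0.760 CPM in control. Its test there, and its place among the genes tested, partly reflect that filter. There 1 cell held 24 of the 56 Eomes UMIs of EV 2, and without EV 2 the value was 2.23 (adjusted p = 0.021). In NK cells it stood at -0.12 (SE 0.27). No other of the 9 transcription factors was called in T or NK cells. Eomes was thus 1 of 7 tested in Il2rb+ CD8 T, 1 of 6 in Il2rb0 CD8 T and 1 of 8 in CD4 T cells. The shares of all genes called there were 0.513%, 1.37% and 1.09%. Klre1, an NK receptor, rose in Il2rb+ CD8 T cells by 1.38 (SE 0.22, adjusted p = 0.026), from 6.09 and 6.69 to 18.5 and 14.7 CPM. It was the only one called of the 12 killer receptors and adaptors, 10 of which were tested there, against 0.513% of all genes. Its call was lost in thinned cells (1.20, adjusted p = 0.36) and with stricter gates (0.69, adjusted p = 0.36). Xcl1, a chemokine that draws cross-presenting dendritic cells, rose in Il2rb0 CD8 T cells by 1.91 (SE 0.40, adjusted p = 0.038). It was the only one called of the 8 death ligands, cytokines and chemokines, 5 of which were tested there, against 1.37% of all genes. The Xcl1 level was 2.82, 2.42, 4.80 and 14.1 CPM, and 1 cell held 83 of the 100 UMIs of EV 2. Without EV 2 the value was 0.90, and the call was lost. Of the 12 granule and exocytosis genes and the 4 granzyme inhibitors, 3 of which were tested, 0 were called in either CD8 gate, CD4 T or NK cells by edgeR. Of the 6 other granzymes, Gzmc had 0, 24, 150 and 65 UMIs in NK cells (log2 difference 3.44, SE 0.65, adjusted p = 0.32) and Gzmd, Gzme, Gzmg and Gzmn had 0 in every gate. Heat shock genes moved with the groups in all T gates and in B cells. In B cells Hsph1, Hspa8, Dnaja1 and Hsp90ab1 were called higher with EVs. In NK cells Hspa8, Hsp90ab1 and Dnaja1 were higher in both EV libraries but were not called. Hsph1 rose by 1.25, 1.22 and 1.36 log2 units in Il2rb+ CD8, Il2rb0 CD8 and CD4 T cells, and Hspa8 and Dnaja1 were called in each of them. The 2 proliferation markers were lower with EVs, at 7.50 to 12.1 CPM against 16.3 to 28.7 CPM in Il2rb+ CD8 T cells. Their part in the members' values was not tested.

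Over the 20 sums of 5 gates and 4 libraries, the genes most like each member in log2(CPM + 1), among 8251 with a mean of at least 10 CPM, were as follows, as a description in which sums of a library share their depth. Gzma went with Klra9, Il12rb2 and Styk1 (Pearson r 0.99 each), Gzmb with Dusp5 (0.96), Ccr2 and Fgl2 (0.95 each) and Gzmm with Samd3 (0.87), Wdr95 (0.86) and Bcl2 (0.85). Prf1 went with Padi2, Ctsd and Cd7 (0.99 each), Nkg7 with Klrd1 (0.98), Jaml and Runx3 (0.97 each) and Ctsw with Crtam, Cst7 and Atp8b4 (0.99 each). Ccl5 went with Ctla2b, Klra7 and Gas7 (0.97 each) and Fasl with Osbpl3 (0.98), Itgb1 and Ccr2 (0.97 each). Klrg1, whose own mean was under 10 CPM, went with Pik3r1 and Oxr1 (0.97 each) and Smap1 (0.96). Gzmk, at 23 UMIs in the gates, reached 0.70 with Wrnip1, 0.69 with Fasn and 0.68 with Zfp451. Among the members themselves the closest pairs were Gzmb with Fasl, Nkg7 with Ctsw and Prf1 with Ctsw (0.95 each), and no gate gene was among the genes named.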

How the data were processed

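Single-cell suspensions of draining lymph nodes were measured with the 10x 3′ v3.1 droplet method in 2 Control and 2 EV libraries. The authors deposited UMI counts per gene and barcode, made with Cell Ranger 7.1.0 on mm10, as whole numbers without normalization. Handling of intronic reads is not given in the sources used here. The cell filter required 200 to 5000 genes, a UMI total of no more than 20000 and a mitochondrial share under 10%. Doublets were kept in the main setting. The 12 cells that met both the NK and the B gate were counted as NK.

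Counts were summed per library and gate and tested two-sided in edgeR by quasi-likelihood, after TMM scaling and filterByExpr, with Benjamini-Hochberg adjustment over all genes tested. A gene was called at an adjusted p under 0.05. Cells are not replicates, so these sums take the place of the study's Wilcoxon test on cells. Comparisons of gates used the 20 sums with library as a block, and the interaction used the 8 CD8 sums. SE is the absolute log2 fold change divided by the square root of F. CPM is a gene's UMIs per 1000000 UMIs of the gate, and it is not scaled by transcript length, so levels were compared between cells and not between genes. Intervals of shares are Clopper-Pearson at 95%, limits for a count of 0 use 3 counts, and both cover counting error only. Shares were compared with exact permutation tests. The fits were tested on simulated data.

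The members, gene lists, gates and tests were chosen with earlier results of these data known. Genes named are the 10 members, listed cytotoxicity genes called with EVs in T or NK cells, the 3 genes most like each member and 5 quality genes. P-values of the EV comparisons measure the spread between 2 libraries per group. With a library left out, its group holds 1 library and adds no spread of its own to the p-value. Those of the gate comparisons measure the spread of gate differences within the 4 libraries, estimated over the 5 gates together. Those of the interaction measure how the difference between the CD8 gates varies between libraries of a group. Alternatives were DESeq2, median-ratio size factors, no filterByExpr, thinning to 2000 UMIs (seed 1), another cell filter (no upper limits, under 5% mitochondrial), Scrublet doublets removed (expected rate 6%), stricter gates, a replicate block, no library block and each library left out, and, added after seeing the data, a ribosomal limit of 60% and leaving out the cell highest in Ccl5. Software was R 4.3.3, edgeR 4.0.16, limma 3.58.1, DESeq2 1.42.0, Python 3.11.15, scanpy 1.11.5, numpy 2.4.6, scipy 1.17.1 and matplotlib 3.10.9.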

Additional observations from a re-analysis of the deposited data

Results flagged for a closer look

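The EV effect on Ccl5 differed between the 2 CD8 gates by 1.39 log2 units (SE 0.25, adjusted p = 0.012 in edgeR's interaction test), with 0.28 in Il2rb+ and -1.15 in Il2rb0 CD8 T cells, and leaving out a library moved the difference between 0.69 and 2.30. The EV effect on Xcl1 differed the other way, by -2.11 (SE 0.37, adjusted p = 0.012), with -0.15 in Il2rb+ and 1.91 in Il2rb0 cells, where 83 of the 100 UMIs of EV 2 lay in 1 cell, and its range over left-out libraries was -2.85 to -0.79, the latter without EV 2 (adjusted p = 0.63). The Ccl5 difference fell to 0.69 without Control 2 (adjusted p = 0.073). Both were picked up by the test of the difference itself. The Il2rb split between the gates moves with depth, and its part in these differences was not tested.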

How the results depend on the processing

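Of 1300 fitted values of single genes under the alternatives, 1153 kept their direction and their side of the threshold, 30 lost a call, 48 gained one and 69 changed sign, each from a value that was not called. DESeq2 gave no adjusted p for Gzmb and Fasl in Il2rb+ and for Gzma, Gzmm, Eomes and Xcl1 in Il2rb0 CD8 T cells. Counts of all genes called with EVs in Il2rb+ CD8 T, Il2rb0 CD8 T, CD4 T, NK and B cells were 386, 609, 773, 24 and 1404 without filterByExpr. The other cell filter gave 22, 98 and 712 in Il2rb+, Il2rb0 and B cells, stricter gates 119 in Il2rb+ and 256 in CD4 T cells, thinning 238 in CD4 T and 2 in NK cells and DESeq2 93 in Il2rb0 cells. Members called in Il2rb0 cells were 0 with DESeq2, median-ratio scaling and thinning and 3 without filterByExpr, in CD4 T cells 1 without filterByExpr, with the other cell filter and without the cell highest in Ccl5, and in B cells 2 without filterByExpr and 0 with thinning and stricter gates. Between the CD8 gates 303 genes were called without the library block, 250 with thinning and 1230, 7 of them members, with stricter gates. Thinning gave 1393 between NK and Il2rb+ cells and 1939 between Il2rb0 and CD4 T cells, where no library block gave 2177. The interaction gave 0 with DESeq2 and thinning (0 members each), 33 without filterByExpr (2 members), 2 with the other cell filter, 10 without doublets and 8 with stricter gates. Over the 10 members in 5 gates, shares lower in EV numbered 7 after thinning against 3 as counted. By gate, 14.7% to 27.9% of all genes tested were lower after thinning and 6.72% to 7.97% as counted. The Il2rb share difference was 3.93 points after thinning. The causes were not tested.

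The replicate block gave 429, 460, 788 and 1292 genes called in Il2rb+ CD8 T, Il2rb0 CD8 T, CD4 T and B cells, with 3 members in Il2rb0, 1 in CD4 T and 2 in B cells. The labels only number the replicates, and deviations of same-numbered libraries correlated at 0.10, 0.08, 0.06, -0.02 and 0.03 in Il2rb+, Il2rb0, CD4 T, NK and B cells over 2 pairs, so no pairing was established. With the block Gzmm in Il2rb0 cells stood at -0.03.

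The values that changed sign were as follows. For Ctsw in Il2rb+ cells the EV value was -0.12 thinned, -0.01 with the other filter, -0.00 without doublets and -0.06 with stricter gates, for Gzmm in Il2rb0 cells -0.09 with DESeq2, -0.01 without filterByExpr or with the other filter and -0.00 with stricter gates, and for Xcl1 in Il2rb+ cells 0.19 thinned and 0.35 with the other filter. In CD4 T cells Ccl5 was -1.25 with the other filter and -1.38 without its highest cell, Klrg1 0.88 with the other filter and Fasl -0.30 thinned. In NK cells Ctsw was 0.00 with DESeq2 and 0.03 without the cell highest in Ccl5, and Ccl5 -0.02 with the other filter. Prf1 in B cells was 0.30 thinned, 0.07 without doublets and 0.03 with stricter gates. Between the CD8 gates Prf1 was -0.02 thinned and -0.00 with the other filter, and Klrg1 0.45 with stricter gates and 2.10 without the cell highest in Ccl5, where Klrg1 in Il2rb0 against B cells was -2.21. Ccl5 in CD4 T against B cells was 0.14 with the other filter and 0.46 with stricter gates. Interaction values were -0.76 for Gzmm and -0.07 for Ctsw thinned, and 0.03 for Prf1 and -0.24 for Fasl with stricter gates.

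With each library left out in turn, EV calls ran from 57 to 531 in Il2rb+, 134 to 1132 in Il2rb0, 94 to 2077 in CD4 T, 9 to 49 in NK and 131 to 2648 in B cells, with 0 to 2, 1 to 2, 0 to 3, 0 to 1 and 1 to 2 members. The interaction ran from 4 to 81 genes and 0 to 2 members. Gate comparisons ran from 413 to 471 genes and 4 to 6 members between the CD8 gates, 2267 to 2758 and 8 to 8 for NK against Il2rb+, 7874 to 8367 and 5 to 7 for Il2rb0 against B, 7848 to 8327 and 6 to 7 for CD4 T against B and 2831 to 3345 and 6 to 8 for Il2rb0 against CD4 T. Shares higher in EV numbered 23 to 30 and lower 6 to 12, and the Il2rb difference was 7.74 to 11.8 points. EV values that changed sign ran, in Il2rb+ cells, from -0.01 to 0.53 for Ccl5, -0.06 to 0.08 for Ctsw, -0.17 to 1.53 for Gzma, -2.37 to 0.63 for Gzmb and -0.43 to 0.11 for Xcl1. In Il2rb0 cells they ran from -2.61 to 0.19 for Gzma and -1.73 to 0.62 for Gzmm. In CD4 T cells they ran from -0.85 to 0.88 for Ccl5, -0.79 to 3.44 for Gzmb, -0.73 to 0.45 for Klrg1 and -0.67 to 0.77 for Nkg7. In NK cells they ran from -0.09 to 0.04 for Ctsw, -0.07 to 0.88 for Fasl and -0.26 to 0.09 for Nkg7, and in B cells from -0.58 to 0.05 for Gzmm and -0.44 to 0.25 for Prf1. Interaction values ran from -1.79 to 5.16 for Fasl, -0.34 to 4.15 for Gzma, -3.17 to 2.07 for Gzmb, -0.45 to 2.27 for Gzmm and -0.21 to 0.04 for Prf1. Gzmm ran from -0.26 to 0.11 in CD4 T and -0.03 to 0.48 in Il2rb0 against B cells, and Klrg1 from -2.27 to 1.66 in Il2rb0 against B cells and -3.05 to 2.39 between the CD8 gates. With 1 library left in a group, it was assumed to vary like the other group. The 130 NK cells limit what can be detected there.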
